A study of Mus musculus with 21 samples.

Results

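The comparison described here set 3 arrays of dentate gyrus RNA from mice with the NgR transgene switched on against 3 arrays from mice that carried the transgene but could not express it, 6 of the 21 arrays in the series. All 12499 genes that passed a filter on low signal were compared. The transgenic samples were bitransgenic for pTRE/NgR, a Nogo receptor transgene, and for the transactivator tTA, and doxycycline had been removed to induce the transgene (samples 9, 12 and 25, called the removed group). The monotransgenic samples (2, 3 and 8) carried the NgR transgene without tTA and were also given water after doxycycline removal, so all 6 carried the transgene. A further 3 arrays of the same set were bitransgenic with doxycycline kept in the diet (samples 13, 16 and 22, the diet group). Of the other arrays, experiment 2 held 3 bitransgenic samples never exposed to doxycycline and 3 monotransgenic samples on water, and set 3 held 3 of each genotype with no treatment given. The labels give neither the age, strain or sex of the mice, nor the promoter that drives tTA, nor the species of the NgR sequence. Whether each sample is a different animal is not stated, so the spread behind the p-values is that between samples and may in part be technical.

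NgR, the product of *Rtn4r*, is a membrane-anchored receptor for the myelin proteins Nogo-A, MAG and OMgp, and signals through co-receptors to restrain neurite growth. In neurons its own transcript falls after strong activity, and it has been studied as a brake on activity-driven synaptic change. The dentate gyrus is the entry stage of the hippocampus, and its principal neurons, the granule cells, send mossy fibres to CA3. In the tTA system doxycycline binds the transactivator and holds it off the tetracycline-responsive promoter, so the transgene is silent with the drug and active without it.

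The 6 arrays resembled each other in RNA quality as read from the Gapdh and actin controls. In every array the 3' signal of these controls was far above the 5' signal, and the effect of this on other probe sets was not tested. The 3'/5' log2 ratio of the Gapdh control ran from 4.12 to 4.29 in the removed group and from 4.09 to 4.32 in the monotransgenic group, and that of actin from 4.63 to 4.86 and from 4.55 to 5.04. Pearson correlations of arrays across genes were 0.983 to 0.985 within the removed group, 0.986 to 0.988 within the monotransgenic group and 0.976 to 0.983 between them. The 6 arrays had *Xist* at 12.2 to 33.7 and *Eif2s3y* at 395 to 680, whereas the 6 arrays of experiment 2 had *Xist* at 2361 or more, so experiment 2 differs from set 1 in sex as the arrays show it. Markers of granule cells were high in both groups, their summed intensity over 16 genes running from 28575 to 34397 in the removed group and from 34126 to 39991 in the monotransgenic group. In bulk tissue, fewer cells of a type and less RNA per cell cannot be told apart.

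In the other sets, 3 monotransgenic arrays went against their labels for the genes described below, and their place has to be known before any result. For each gene called in set 1, the level of an array was placed on a scale on which the monotransgenic mean of set 1 is 0 and the removed mean is 1, and the median over the 330 genes called was taken. The monotransgenic samples 1 and 2 of experiment 2 stood at 0.85 and 0.81, and monotransgenic replicate 2 of set 3 stood at 1. The other monotransgenic arrays of those sets lay at 0.13 (experiment 2, sample 8), 0.06 and 0.08 (set 3, replicates 1 and 3). The bitransgenic arrays lay at 1.13, 0.86 and 0.77 in experiment 2 and at 0.96, 0.77 and 0.76 in set 3. The 3 diet arrays lay between the groups of set 1, at 0.39, 0.45 and 0.43. So 3 arrays labelled monotransgenic had the levels of arrays labelled bitransgenic over these genes, while their *Rtn4r* intensity stayed low, at 113, 185 and 112. On a count of genes, 71.5%, 67.3% and 79.7% of the 330 lay nearer the removed mean in these 3 arrays, against 16.7%, 13.9% and 16.4% in the other monotransgenic arrays. Over all 12499 genes the shares were 53.7%, 45.4% and 52% against 42.1%, 40% and 41.7%. The part of these arrays in the results was not tested. Differences in experiment 2 and set 3 are given with and without them. Without them, experiment 2 keeps only monotransgenic sample 8, so its values then rest on 1 monotransgenic array. Set 3 keeps monotransgenic replicates 1 and 3.

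**Figure D1:**
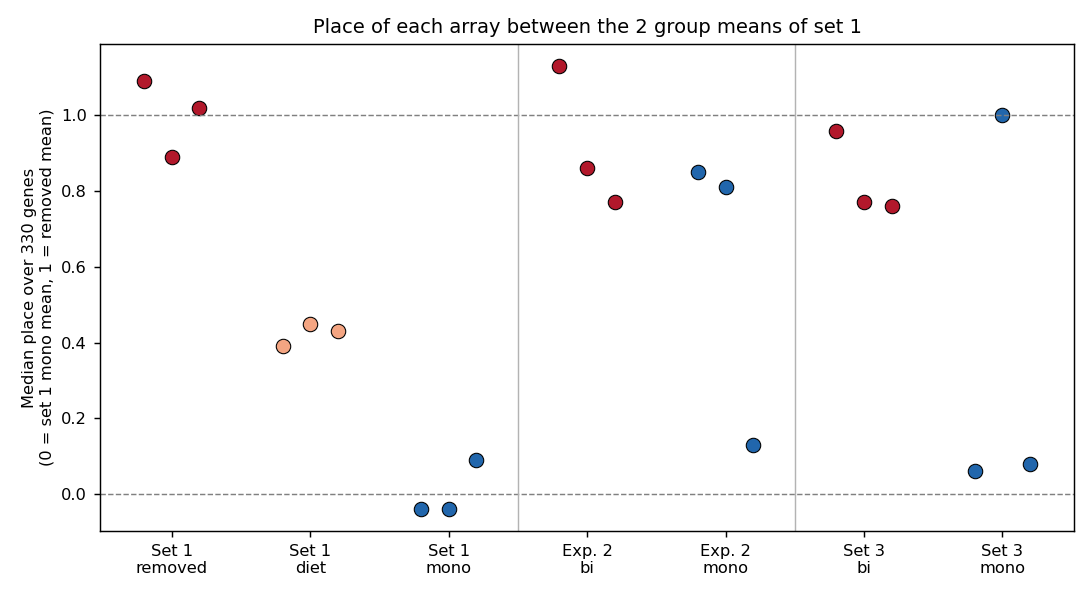
Place of each of the 21 arrays between the monotransgenic mean (0) and the doxycycline-removed mean (1) of set 1, as the median over the 330 genes called in the set 1 fit (vertical axis, no unit), with 1 point per array in each of 7 groups. The 6 compared arrays chose the genes, so their places follow from the choice; among the other sets, 3 monotransgenic arrays lie at 0.81 to 1 and the other 3 at 0.06 to 0.13.

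*Rtn4r*, the targeted gene, was higher in every removed array. Its intensity was 1469, 329 and 254 in samples 9, 12 and 25 of the removed group and 63.8, 98.4 and 79 in monotransgenic samples 2, 3 and 8. Sample 9 stood far above the other removed samples, and the groups did not overlap. On the log2(value + 16) scale *Rtn4r* rose by 2.44 ± 0.4 (standard error), 5.43-fold (limma over 21 arrays, adjusted p = 0.032; over the 9 arrays of set 1, 0.0158). An exact two-sided permutation over the 3 against 3 arrays gave p = 0.1, the smallest it can give. Without sample 9 the difference was 1.7, and without monotransgenic sample 2, 3 or 8 the adjusted p over 21 arrays was 0.16, 0.111 or 0.0566. In the diet group, the same genotype with the drug present, *Rtn4r* stood at 111, 87 and 73.1, 0.14 log2 units above the monotransgenic mean.

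With the spread taken from all 21 arrays, 9 genes passed (0.072% of those tested), 2 higher and 7 lower, with 982 genes at an unadjusted p under 0.05. Beside *Rtn4r*, *Klf10* rose and *Bcr*, *Dpp10*, *Igfbp5*, *Lum*, *Ogn*, *Tox3* and *Upk1b* fell. On the deposited scale without quantile normalization the split was 4 higher and 7 lower, and with arrays centred on their 75th percentile 5 higher and 9 lower. This list rested on few arrays: *Rtn4r* alone passed without removed sample 9 or 25, 4 genes passed without removed sample 12, 6 without monotransgenic sample 8, and 0 without monotransgenic sample 2 or 3 (limma; 691 and 745 genes then had an unadjusted p under 0.05).

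*Klf10*, an early transcriptional target of TGF-beta and activin signalling, stood at 605, 612 and 554 in the removed samples and at 179, 289 and 211 in the monotransgenic samples. It rose by 1.35 ± 0.23 log2 units (2.54-fold, adjusted p = 0.032), with the diet samples between, at 259, 346 and 426. *Bcr* was tightly grouped: 311, 307 and 281 against 531, 586 and 567. It fell by 0.85 ± 0.15 (adjusted p = 0.032), and its diet samples, at 375, 430 and 456, also lay between the groups. A second probe set of *Bcr* above the filter gave -0.51. *Dpp10*, an auxiliary subunit of A-type potassium channels, fell by 1.01 ± 0.19 (adjusted p = 0.0468) from 151, 128 and 117 to 62.9, 42.2 and 63.1; a second probe set of the gene above the filter gave -0.13.

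*Ogn*, coding for the small leucine-rich proteoglycan osteoglycin, showed the largest difference among the genes that passed. Its intensity was 11.7, 26.8 and 24.2 in the removed group against 556, 728 and 636 in the monotransgenic group, a fall of 4.16 ± 0.74 log2 units (17.9-fold, adjusted p = 0.0321). The removed samples were dim, and the size of the fall depended on the pseudocount and the probe set: it was -4.93 with a pseudocount of 1 and -3.05 with 64, a second, dimmer probe set above the filter gave -1.24, and the mean of the probe sets gave -2.7. *Lum*, its relative lumican, fell by 1.48 ± 0.28 (adjusted p = 0.0468), from 93.3, 112 and 63.1 to 25.4, 24.5 and 13.1. Neither gene separated the removed from the diet samples: *Ogn* was 8.54, 26.8 and 16.5 and *Lum* 36.2, 22.6 and 28.3 on the diet, where the transgene is held off. *Igfbp5*, a secreted binding protein of insulin-like growth factors, fell by 2.43 ± 0.46 (adjusted p = 0.0468), from 1262, 1510 and 887 to 83.1, 407 and 232. A second, dim probe set of *Igfbp5* above the filter gave -1.03 (mean intensity 15.2 against 47.7). *Tox3*, a high-mobility-group transcription factor gene, fell by 1.71 ± 0.26 (adjusted p = 0.032), from 239, 234 and 194 to 40, 79.1 and 48. *Upk1b*, coding for a tetraspanin, fell by 2.35 ± 0.41 (adjusted p = 0.032), from 129, 152 and 118 to 16.6, 23.4 and 2.95. For these 5 genes the groups did not overlap, as for 22.2% of all genes, and this largely follows from their choice on these arrays. The diet mean lay at or toward the removed level, with diet minus monotransgenic differences of -4.37 (*Ogn*), -1.25 (*Lum*), -1.48 (*Igfbp5*), -1.74 (*Tox3*) and -1.21 (*Upk1b*).

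**Figure D2:**
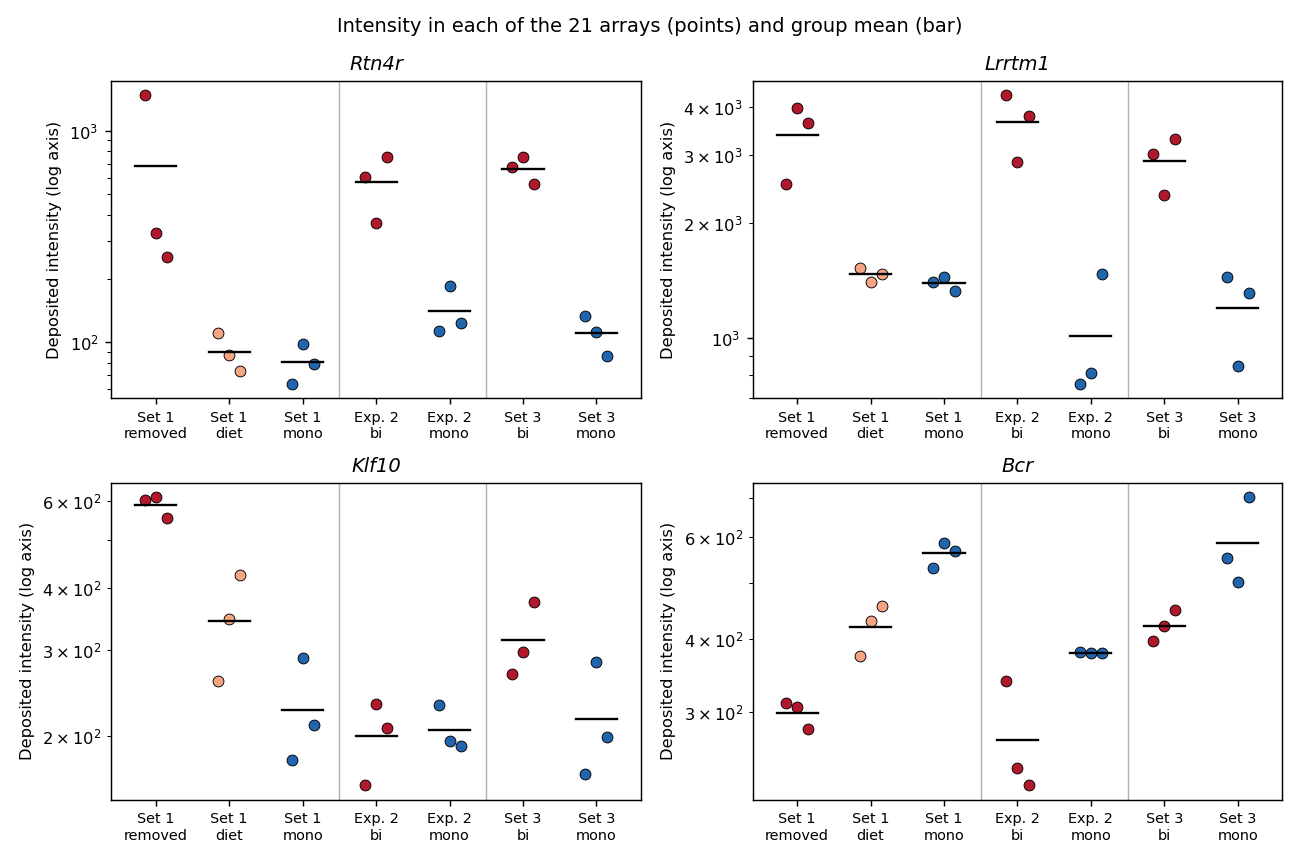
Deposited intensity (log axis) of *Rtn4r*, *Lrrtm1*, *Klf10* and *Bcr* in each of the 21 arrays, as points in 7 groups with the group mean as a bar. *Rtn4r* and *Lrrtm1* are higher in each of the 9 arrays with the transgene on than in any of the 9 monotransgenic arrays, while *Klf10* in experiment 2 is about level between genotypes (0.01 log2 units, or 0.17 without the arrays that stand apart).

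Taking the spread from the 9 arrays of set 1 alone, 330 genes passed (2.64%), 147 higher (1.18%) and 183 lower (1.46%), with 2071 at an unadjusted p under 0.05. All 9 genes above were among them. With arrays centred on their 75th percentile the split was 179 higher and 150 lower. The removed and monotransgenic arrays did not overlap in 329 of the 330, against 2781 of all genes tested (22.2%). The same arrays chose the 330, so this separation largely follows from the choice and is no further support. The fits give the same differences and differ in the error: the median standard error of the 330 genes was 0.247 over 21 arrays and 0.135 over set 1, and the median SD of a gene within a group was 0.16 in the removed group, 0.14 in the monotransgenic group and 0.3 and 0.28 in the groups of experiment 2. The median size of the difference over the 330 was 0.75 log2 units, and 95 genes differed 2-fold or more. Leaving out 1 of the 6 arrays gave 203, 357 and 202 calls without removed samples 9, 12 and 25 and 126, 156 and 299 without monotransgenic samples 2, 3 and 8; 109 genes passed in all of these fits and in the fit with all 9 arrays. In the paragraphs that follow, "rose" and "fell" refer to the set 1 fit and adjusted p is from it. Every count over a gene list below is to be read beside the shares over all genes, 1.18% that rose and 1.46% that fell.

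**Figure D3:**
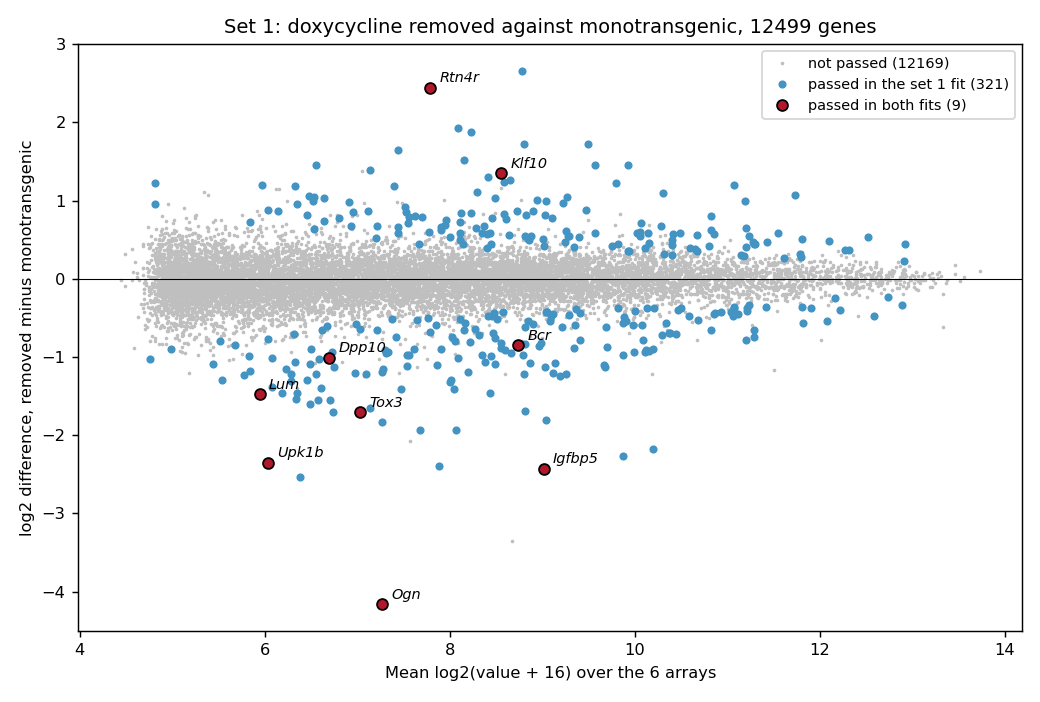
Difference between the removed and monotransgenic groups (vertical axis, log2 units) against the mean log2(value + 16) of each of 12499 genes over the 6 arrays (horizontal axis). Grey points did not pass, blue points passed in the set 1 fit and the 9 red points passed in both fits; *Ogn* lies lowest at -4.16 and *Rtn4r* is among the highest at 2.44.

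The 14 largest rises, *Rtn4r* and *Klf10* included, were named by rule. *Blnk*, an adaptor of B-cell receptor signalling, was at 1124, 1081 and 1111 in the removed samples and at 109, 72.3 and 469 in the monotransgenic samples, a rise of 2.66 log2 units (adjusted p = 0.0117). Monotransgenic sample 8 was well above its group here, without reaching the removed samples. *Dkk3*, a secreted glycoprotein of the Dickkopf family, rose by 1.93 (adjusted p = 2.4e-06), from 119, 116 and 138 to 499, 498 and 553. Its diet samples, at 370, 390 and 336, lay nearer the removed samples. *Tbr1*, a transcription factor gene of glutamatergic cortical neurons, rose by 1.72 (adjusted p = 9.74e-05), from 209, 212 and 274 to 710, 752 and 954. Those groups lay far apart with little spread inside each. *Inhba*, the gene of the activin A subunit, rose by 1.88 (adjusted p = 0.000487), from 127, 105 and 208 to 535, 505 and 670, and its diet samples were at 122, 134 and 107, no higher than the monotransgenic samples. *Prss23*, a secreted serine protease gene, rose by 1.72 (adjusted p = 0.00135), to 1798, 897 and 1420 from 363, 330 and 471.

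*Homer2*, a postsynaptic scaffold gene, rose by 1.46 (adjusted p = 0.00151), from 383, 349 and 638 to 1322, 1122 and 1356, with 1.48 from a second probe set above the filter and 0.43 from another, dim one (mean intensity 23.4 against 12.5). *Pde4b*, a cyclic AMP phosphodiesterase gene, rose by 1.45 (adjusted p = 0.00348), from 576, 576 and 575 to 2009, 1644 and 1288; its other probe sets above the filter gave 0.81 (mean intensity 109 against 56.6) and -0.01 (25.1 against 25.7). The remaining named rises were *Lhfp* (1.65), *Zdhhc22* (1.52), a palmitoyltransferase gene, *Klhdc8a* (1.46), *Plcxd3* (1.39) and *Arhgap29* (1.3). The naming rule took only genes whose groups did not overlap.

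The 14 largest falls were named in the same way. *Penk*, the enkephalin precursor, was at 57.5, 106 and 94.5 in the removed samples against 459, 577 and 566, a fall of 2.4 log2 units (adjusted p = 6.87e-05). *Cxcl12*, a chemokine of granule cells and vessels, fell by 2.27 (adjusted p = 0.00349), from 2435, 2173 and 1637 to 240, 802 and 343, with -0.22 from a second probe set. *Grp*, the gastrin-releasing peptide precursor, fell by 2.53 (adjusted p = 0.0423), but its monotransgenic samples were scattered, at 199, 583 and 48 against 10.9, 28.3 and 18.9. It passed in 1 of the 6 set 1 fits that leave out an array.

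*Doc2b*, a calcium sensor of vesicle release, fell by 2.18 (adjusted p = 9.74e-05), from 2636, 2650 and 2194 to 358, 698 and 611. A second, dim probe set above the filter gave -0.57 (mean intensity 22.2 against 42.1). The diet samples of *Doc2b* were at 2579, 2589 and 3168, in the monotransgenic range. *C1ql2*, a synaptic organizer secreted by mossy fibres, fell by 1.8 (adjusted p = 9.74e-05), from 924, 1105 and 887 to 290, 297 and 210. The kainate receptor subunit gene *Grik3* fell by 1.83 (adjusted p = 0.004), from 265, 244 and 318 to 33.9, 90 and 76.9, and the neuropeptide Y receptor gene *Npy2r* by 1.69 (adjusted p = 2.38e-05), from 835, 749 and 794 to 205, 282 and 215. *Rflnb* (-1.94), *Tafa1* (-1.94) and *Abca8a* (-1.7) completed the named falls. *Lpl*, coding for lipoprotein lipase and singled out after its value was seen, differed by -3.35 ± 0.81 without overlap but did not pass (adjusted p = 0.149 over 21 arrays and 0.0596 in set 1).

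The named genes differed in where the diet samples stood, which is given as values only because the comparisons share arrays. For *Ogn*, *Penk* and *Tox3* the diet group differed from the monotransgenic group by -4.37, -2.76 and -1.74 and the removed group from the diet group by 0.21, 0.36 and 0.03. For *Doc2b*, *Rflnb*, *Inhba*, *Lhfp* and *Prss23* the order was the other way: diet minus monotransgenic was 0.18, 0, -0.2, 0.01 and -0.92, and removed minus diet -2.35, -1.94, 2.08, 1.64 and 2.64. *Rtn4r* gave 0.14 and 2.3, and *Lrrtm1* 0.09 and 1.11. Among the other rises, *Dkk3* gave 1.45 and 0.48 and *Zdhhc22* 0.81 and 0.71.

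**Figure D4:**
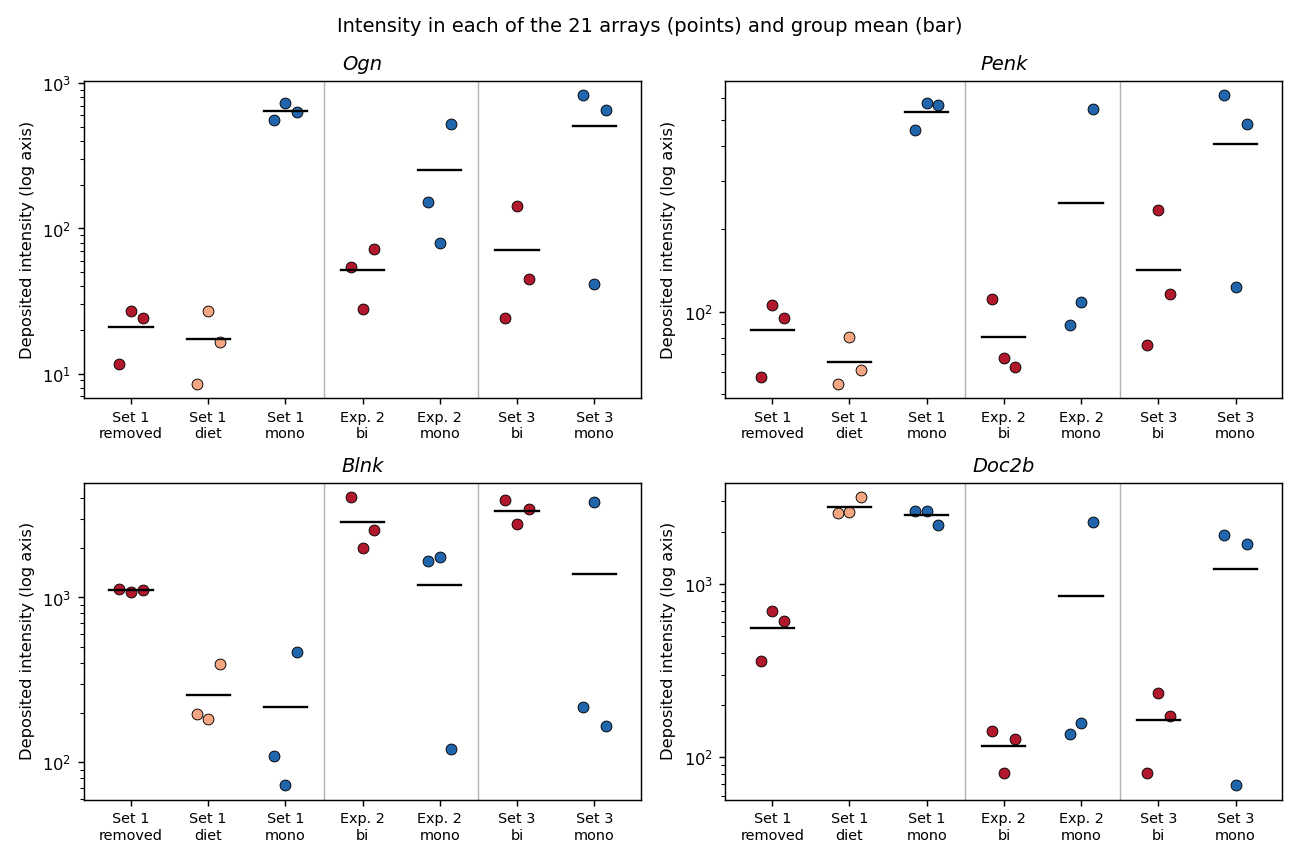
Deposited intensity (log axis) of *Ogn*, *Penk*, *Blnk* and *Doc2b* in each of the 21 arrays, as points in 7 groups with the group mean as a bar. In set 1 the removed and monotransgenic points do not overlap, while in experiment 2 and set 3 the monotransgenic points split, for *Doc2b* into 136, 158 and 68.9 on the side of the bitransgenic arrays and 2273, 1914 and 1700 above them.

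*Lrrtm1* codes for a leucine-rich transmembrane protein of the postsynaptic membrane that binds neurexins and organizes excitatory synapses. It was at 2516, 3965 and 3631 in the removed samples, at 1401, 1446 and 1330 in the monotransgenic samples and at 1527, 1403 and 1468 on the diet. It rose by 1.2 ± 0.23 (standard error over 21 arrays; adjusted p = 0.0011 in set 1 and 0.055 over 21 arrays). In experiment 2 its bitransgenic samples were at 4282, 2869 and 3782 and its monotransgenic samples at 762, 813 and 1470; in set 3 they were at 3007, 2356 and 3297 against 1439, 848 and 1313. The 3 monotransgenic arrays that stood near the removed group for most genes were the lowest of all 21 for *Lrrtm1*, at 762, 813 and 848. Across all sets the 9 arrays with the transgene on and the 9 monotransgenic arrays separated without overlap for *Rtn4r* and *Lrrtm1* among the 330 genes. Over all 12499 genes there was 1 more, *Ano6*, which did not pass in set 1 (-0.13, adjusted p = 0.546).

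The 250 bases before the annotated start of *Rtn4r*, *Lrrtm1*, *Inhba* and *Ogn* are shown because the first pair separated all arrays, *Inhba* is the ligand gene of a list described below and *Ogn* fell most. They are from RefSeq, build GRCm38.p6, plus strand, at chr16:18127392-18127641, chr6:77242227-77242476, chr13:16011601-16011850 and chr13:49607765-49608014. The transgene is driven from pTRE, not from the *Rtn4r* promoter. Capitals mark matches on either strand to the core of the cyclic AMP response element, which reads TGACG. They also mark the motif known as the GC box, searched as GGGCGG. The letters of the TATA motif searched for were TATAAA.
Rtn4r: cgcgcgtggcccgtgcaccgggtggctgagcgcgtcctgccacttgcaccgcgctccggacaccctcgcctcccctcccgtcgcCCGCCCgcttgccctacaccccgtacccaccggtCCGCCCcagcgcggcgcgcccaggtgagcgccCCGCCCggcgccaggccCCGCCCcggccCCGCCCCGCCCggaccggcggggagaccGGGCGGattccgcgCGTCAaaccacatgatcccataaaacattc
Lrrtm1: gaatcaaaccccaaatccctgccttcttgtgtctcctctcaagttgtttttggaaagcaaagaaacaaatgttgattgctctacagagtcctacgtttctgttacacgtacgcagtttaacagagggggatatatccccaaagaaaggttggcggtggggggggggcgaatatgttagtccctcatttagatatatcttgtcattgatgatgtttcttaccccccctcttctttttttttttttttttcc
Inhba: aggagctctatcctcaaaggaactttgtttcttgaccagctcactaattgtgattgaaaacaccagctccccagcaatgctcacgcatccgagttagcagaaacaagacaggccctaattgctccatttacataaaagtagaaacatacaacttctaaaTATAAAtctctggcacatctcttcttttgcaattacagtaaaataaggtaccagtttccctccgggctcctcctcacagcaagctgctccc
Ogn: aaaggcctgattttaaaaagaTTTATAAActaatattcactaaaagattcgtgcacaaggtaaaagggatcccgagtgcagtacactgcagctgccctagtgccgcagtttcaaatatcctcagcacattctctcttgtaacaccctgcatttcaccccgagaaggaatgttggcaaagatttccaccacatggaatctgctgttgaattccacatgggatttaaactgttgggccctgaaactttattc
The *Rtn4r* window held 7 GC boxes and 1 TGACG match, *Inhba* 1 TATA box, *Ogn* 2 overlapping TATA matches, and *Lrrtm1* none of the 3 motifs. Of 32851 windows of the same length, 17.8% held TGACG, 32.7% the GC box and 12.4% the TATA box. A match is only a description of these letters.

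Activin A, a dimer of the *Inhba* product, acts through type II and type I receptors and Smad proteins, and dentate neurons express it after activity. Of 31 measured members of a list of TGF-beta and activin ligands, receptors and targets, 3 rose and 3 fell, and the median difference was 0. Over all genes 1.18% rose, 1.46% fell and the median was -0.013. The rises were the ligand subunit gene *Inhba* and the target genes *Klf10* and *Skil*; *Skil*, a Smad corepressor induced by the pathway, rose by 0.58 (adjusted p = 0.00132), from 2501, 2463 and 2302 to 4279, 3477 and 3596. The falls were *Id2* (-0.98, adjusted p = 0.0034), a target of the BMP branch, *Tgfb2* (-0.88, adjusted p = 0.0126), a ligand, and *Smad3* (-0.37, adjusted p = 0.0407), a signal transducer. *Fst*, whose product follistatin binds activin, was 1.01 higher without overlap and did not pass (adjusted p = 0.0645). *Pmepa1*, a feedback inhibitor, was 0.49 higher with overlap (adjusted p = 0.276). In the other sets *Inhba* differed by 0.15 (experiment 2) and 0.81 (set 3) with all arrays and by 0.88 and 1.32 without the 3 arrays that stand apart. *Klf10* differed by 0.01 and 0.53, and by 0.17 and 0.73 without them. *Skil* differed by 0.1 and 0.13, and by 0.21 and 0.24 without them.

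The Nogo receptor list, with receptors, co-receptors, ligands and effectors, had 15 measured members, of which *Rtn4r* rose and 14 did not pass. The homologues *Rtn4rl1* (-0.28) and *Rtn4rl2* (0.07), the co-receptor *Lingo1* (-0.11), the ligands *Rtn4* (0), *Mag* (-0.29) and *Omg* (-0.15) and the effector *Rock1* (0.04) are given as values. Of 24 axon growth genes, *Ncam1* fell (-0.36, adjusted p = 0.00723) and none rose. Of 37 axon guidance genes, *Sema3c* (1.11, adjusted p = 0.0313) and its receptor gene *Nrp1* (0.5, adjusted p = 0.00878) rose and *Efnb2* (-1.6, adjusted p = 0.0244) fell.

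Of 15 granule cell markers measured, 5 fell and none rose, 12 were lower in all (80%), and the median difference was -0.2. Over all genes 1.46% fell, 52.3% were lower and the median was -0.013. The falls were *C1ql2* (above), its relative *C1ql3* (-0.54, adjusted p = 0.013), the transcription factor gene *Glis3* (-1.1, adjusted p = 0.00542), the cation channel gene *Trpc6* (-1.32, adjusted p = 0.00256) and *Stxbp6* (-0.48, adjusted p = 0.0123). *Prox1*, the factor that defines granule cell identity, was -0.19 with overlap (adjusted p = 0.462), and *Calb1*, the calcium buffer calbindin, was at 4290, 5777 and 4450 against 7045, 6522 and 5597, with -0.48 that did not pass (adjusted p = 0.107). Of 15 opioid and neuropeptide genes, 3 fell and none rose, with a median of -0.41. These were *Penk*, *Pdyn* (-1.55, adjusted p = 0.00485), the dynorphin precursor of granule cells, and *Scg2* (-0.7, adjusted p = 0.0396). *Npy* (-0.1) and *Sst* (-0.18) did not pass.

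At the synapse, 36 adhesion genes gave 1 rise, *Lrrtm1*, and 1 fall, *Ntng1* (-1.22, adjusted p = 0.00406), which codes for a netrin-G of presynaptic axons. The *Lrrtm1* relatives *Lrrtm2* (0.17), *Lrrtm3* (-1.06, adjusted p = 0.084) and *Lrrtm4* (-0.33) did not pass. Of 29 glutamate receptor and auxiliary genes 3 rose and 2 fell, against 1.18% and 1.46% of all genes. The rises were the NMDA receptor subunit gene *Grin3a* (1.19, adjusted p = 0.0201) and the auxiliary genes *Neto1* (0.57, adjusted p = 0.00773) and *Cnih3* (0.5, adjusted p = 0.0302). The kainate receptor genes *Grik3* and *Grik2* (-0.72, adjusted p = 0.00483) fell. Of 34 potassium channel genes, *Kcnab1* rose (0.39, adjusted p = 0.0201) and *Dpp10* fell. Of 31 vesicle and scaffold genes *Homer2* and *Homer1* (0.36, adjusted p = 0.0376) rose and *Syt7* fell (-0.33, adjusted p = 0.0251).

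Immediate early genes respond to neuronal activity within minutes to hours, and 3 of 25 rose: *Egr1* (0.58, adjusted p = 0.0341), *Rgs2* (0.47, adjusted p = 0.016) and *Homer1*. None fell and the median was -0.08, with 12 genes higher and 13 lower. *Jun* (-0.5, adjusted p = 0.0614), *Ptgs2* (-0.79, adjusted p = 0.0887) and *Fosl2* (-0.56, adjusted p = 0.241) were lower without overlap and did not pass. *Ier2* (0.23) was higher without overlap and did not pass either. In all, 7 of the 25 did not overlap, against 22.2% of all genes. *Fos* (0.24), *Arc* (-0.08) and *Npas4* (0.14) overlapped between groups. Over all genes 1.18% rose and 1.46% fell. Of 15 neurogenesis genes *Sox4* (0.92, adjusted p = 0.0282) and *Dcx* (0.79, adjusted p = 0.0486), of immature neurons, rose, while the proliferation genes *Mki67* (0.2) and *Top2a* (-0.16) did not pass. The list split into 8 higher and 7 lower, with a median of 0.02. Among the lower, *Sox11* (-0.4) did not overlap between groups and *Nes* (-0.58) and *Neurod1* (-0.26) did, and none of them passed. *Sox4* in experiment 2 and set 3 was -0.29 and -0.25 with all arrays and -0.19 and -0.09 without the 3 that stand apart. *Dcx* was 0.11 and 0.15 with all arrays and 0.88 and 0.27 without them.

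*Ogn* and *Lum* are also made by meningeal fibroblasts. Of 18 listed meningeal markers, 8 passed the filter, 2 fell (*Ogn* and *Lum*) and none rose; the summed intensity of the list was 396 to 505 in the removed samples and 1235 to 1498 in the monotransgenic samples. Without *Ogn* and *Lum* the sums were 358 to 453 and 413 to 849, which overlap. None of the markers was at 0 in all arrays of a group. Of the 8, 2 were higher and 6 lower (75%, against 52.3% of all genes), with a median of -0.3. *Ptgds* (-0.71, with overlap), *Islr* (-0.34, without overlap), *Dcn* (-0.19), *Bgn* (0.04) and *Col1a2* (0.35) did not pass. The part of meningeal tissue in the fall of *Ogn* and *Lum* was not tested beyond these values. Oligodendrocyte markers gave no call among 17 (summed intensity 4471 to 5114 against 4865 to 6284), vascular markers none among 15 and CA1 markers none among 8. Astrocyte markers gave 1 fall among 15, *Gja1* (-0.42, adjusted p = 0.00941), and microglial markers 1 among 16, *Laptm5* (-0.48, adjusted p = 0.0486), with summed intensities of 2587 to 3241 against 3155 to 4052. Of CA3 and hilar markers 1 rose (*Ociad2*) and 2 fell (*Iyd* and *Pcp4*) among 12. Heat shock and unfolded protein response genes (19) and oxidative phosphorylation genes (24) gave no call.

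Experiment 2 and set 3 share no array with set 1, so their differences between bitransgenic and monotransgenic samples can be set beside the 330 genes. The sign was the same for 263 (79.7%) in experiment 2, against 57.9% of all genes, and for 273 (82.7%) in set 3, against 52%. The Pearson correlation of the log2 differences across the 330 genes was 0.68 with experiment 2 and 0.81 with set 3, against 0.21 and 0.33 across all genes; genes are not independent replicates. Of the 9 genes called over 21 arrays, 7 kept the sign in experiment 2 and 9 in set 3. None of the 9 passed in either set with all arrays (limma), *Rtn4r* coming nearest with adjusted p = 0.062 and 0.0616. The arrays separated without overlap in the same direction for 29 (8.79%) of the 330 in experiment 2 and 28 (8.48%) in set 3. Over all genes these shares were 5.05% and 6.96%. Without the 3 monotransgenic arrays that stand apart, which were chosen by their levels of these genes, the same sign was found for 286 (86.7%) and 297 (90%) of the 330, against 58.4% and 55.2% of all genes, and for 8 and 9 of the 9. The experiment 2 values then rest on monotransgenic sample 8 alone.

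Single genes moved with that choice. *Blnk* differed by 1.8 in experiment 2 and 2.71 in set 3 with all arrays, and by 4.3 and 4.18 without the 3. *Doc2b* differed by -1.51 and -2.02, and by -4.06 and -3.54 without them. *Ogn* went from -1.58 and -2.09 to -3 and -3.34. *Rtn4r* was at 1.93 and 2.47 with all arrays and 2.13 and 2.49 without the 3. *Lrrtm1* moved the other way, from 1.69 and 1.34 with all arrays to 1.11 and 1.1 without them. Its adjusted p with all arrays was 0.00639 in experiment 2 and 0.0837 in set 3 (limma). Without the 3, the experiment 2 values rest on monotransgenic sample 8 alone, so only the differences are given. Of the 330 genes, 164 lay nearer the removed mean in all 3 of these arrays, 89 in 2 of them, 51 in 1 and 26 in none. The 26 included *Rtn4r*, *Lrrtm1*, *Klf10*, *Lhfp*, *Sox4*, *Gja1* and *Kcnab1*. The largest fall among the 26 was *Ctnna2*, at -1.16 in set 1, named after its value was seen.

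**Figure D5:**
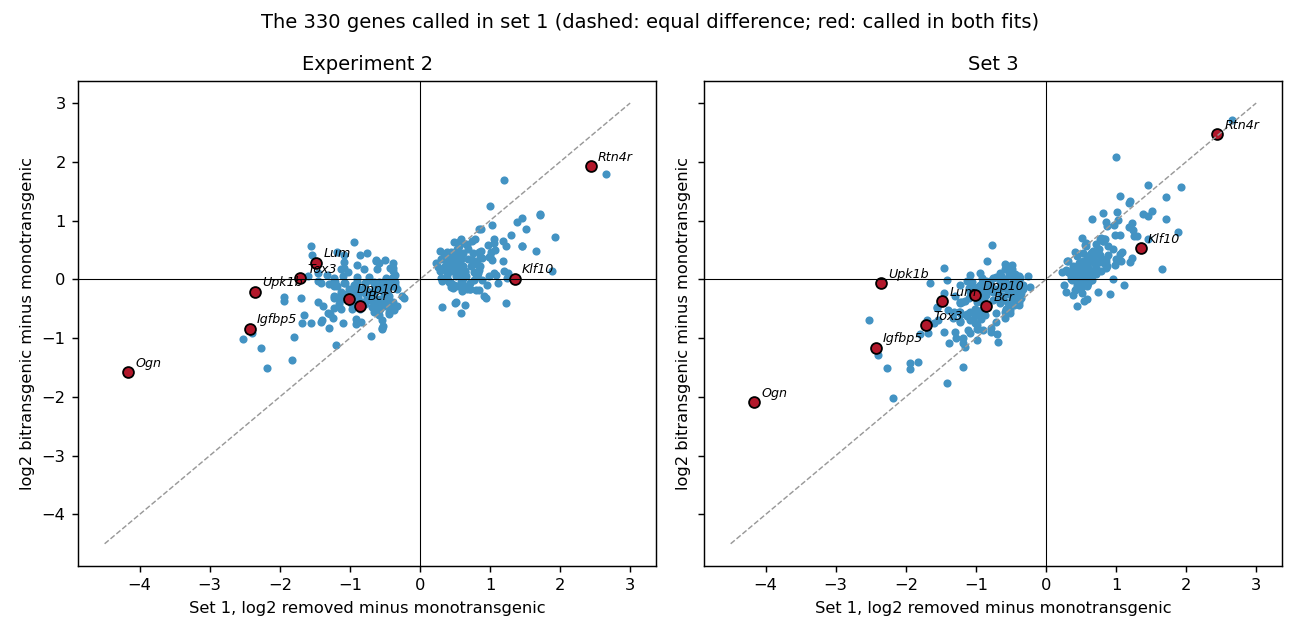
Log2 difference between bitransgenic and monotransgenic arrays in experiment 2 (left) and set 3 (right), vertical axes, against the set 1 difference of the 330 genes called in set 1 (horizontal axes); red points are the 9 genes called over 21 arrays and the dashed line marks equal differences. The sign is shared by 79.7% and 82.7% of the genes, and *Rtn4r* lies near the line at 1.93 and 2.47 while *Ogn* and *Upk1b* differ less than in set 1.

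A test of the difference between the set 1 difference and that of each other set called 0 genes (0% of 12499; limma over 21 arrays), with 438 genes at an unadjusted p under 0.05 for set 3 and 989 for experiment 2. With array weights the test against experiment 2 called 75 genes, among them *Lum* (adjusted p = 0.0451) and *Inhba* (0.0483), and that against set 3 again called 0. The genes of lowest p against set 3 included *Upk1b*, at -2.35 in set 1 and -0.07 in set 3 (adjusted p = 1); without the 3 arrays it was at -0.52 in set 3 (adjusted p = 0.819). Against experiment 2 they included *Lum*, at -1.48 in set 1 and 0.28 there, and *Tox3*, at -1.71 and 0.02 (adjusted p = 0.338 each). Without the 3 arrays *Lum* was at 0.15 and *Tox3* at -0.31 in experiment 2, where 1 monotransgenic array was left. A p that misses the threshold does not show that the sets are alike. The 14 other probe sets above the filter for 11 of the 31 genes named by the 2 call rules gave the same sign in 13, with *Pde4b* as the exception.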

How the data were processed

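The deposited values are the intensity of each Affymetrix probe set, linear, with a 2% trimmed mean of 150 in the array of removed sample 9. No source used here gives the tool that made them. Of 45101 probe sets, 64 were controls, 34945 had 1 gene symbol, 932 several and 9160 none, and 34741 matched RefSeq genes by Entrez ID. Values were used as log2(value + 16). The medians of the arrays spread by 0.3, above a limit of 0.25, so quantile normalization was applied over 21 arrays. The upper 60% of probe sets by mean were kept (27022), and the brightest of a gene's probe sets stood for it (12499 genes). Intensities in the text are as deposited, and log2 differences and folds are from normalized values, which understate changes of dim genes.

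Differences were fitted with limma 3.58.1 in R 4.3.3 (variance trend, two-sided, Benjamini-Hochberg over all genes, threshold 0.05), with 7 groups over 21 arrays (14 residual degrees of freedom) and again over the 9 arrays of set 1 (6). Differences between sets were contrasts of the first fit. The fit was tested on simulated data with known changes, in which a gene had the same spread in all groups. The real groups differed in spread, so that test cannot speak to the gap between the fits. With 3 arrays in a group, precision is limited by their number. The data.table package was at version 1.17.8, and figures were drawn in matplotlib.

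Genes were named by rule: *Rtn4r*, all that passed over 21 arrays, the 14 largest rises and 14 largest falls of the set 1 fit without overlap and with a mean log2 level of 6 or more in the higher group, up to 4 members of lowest p in a list and, in each test between sets, 5 genes. Further list members are named because they passed or are known members of a pathway, after their values were seen. The comparison, both fits and the 38 gene lists, of which those with a bearing on the text are described, were chosen with earlier results of these data known, so no count is independent support. Alternatives covered the pseudocount, filter, scaling, probe set rule, variance trend, array weights, a Gapdh ratio covariate, the arrays in the fit, the threshold and each array left out; a fit without 3 monotransgenic arrays was added after seeing the data.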

Additional observations from a re-analysis of the deposited data

Results flagged for a closer look

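Among the genes named by rule, some lay on opposite sides of their monotransgenic samples in set 1 and in another set. The 3 against 3 arrays did not overlap in either. The genes of lowest p in the tests between sets were picked for such a gap. In set 1 alone, 22.2% of all genes did not overlap. The share of opposite gaps over all genes is not given, so their number is not read as a result. Against experiment 2, *Wfs1* (a CA1 marker) differed by 0.52 there and -0.41 in set 1, *Btrc* by 0.59 and -0.38, and *Plcb3* by -0.73 and 0.59; none of these differences between sets passed (limma over 21 arrays, adjusted p = 0.338 each), whereas with array weights *Wfs1* (0.0451) and *Btrc* (0.00461) did. Without the 3 monotransgenic arrays that stand apart the experiment 2 values were 0.48, 0.55 and -0.65. Against set 3, *Tgm2* differed by 0.58 there and -0.77 in set 1, *Tprn* by 0.77 and -0.93, *Dsel* by -0.16 and 0.43, *Zmym2* by -0.49 and 0.3, and *P2ry12* (a microglial marker) by 0.39 and -0.3; none passed (adjusted p = 1 each). Without the 3 arrays the set 3 values were 0.74, 0.6, -0.18, -0.44 and 0.32.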

How the results depend on the processing

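The count over 21 arrays moved with most choices, from 9 genes to 5 with a pseudocount of 1 or with probe sets averaged per gene, 4 without the variance trend or with the Gapdh ratio as covariate, 14 with a pseudocount of 64 or centring on the 75th percentile, 28 at a threshold of 0.1, 82 over sets 1 and 3, 254 with array weights, 256 over the 6 arrays and 330 over set 1; without the 3 monotransgenic arrays that stand apart it was 133. Without 1 array it ran from 0 to 6. The 330 of the set 1 fit became 133 without the variance trend and 616 at a threshold of 0.1, and ran from 126 to 357 without 1 array. The rise of *Rtn4r* ran from 1.7 to 2.9 without 1 array and passed in 3 of those 6 fits and in 13 of 13 other planned settings. The difference from experiment 2 called 75 genes with array weights in place of 0, among them *Lum* and *Inhba*, and that from set 3 called 2 without the 3 arrays, *Bcat1* and *Pcdh11x*. No sign of the 31 genes named by the call rules reversed under any setting. No paired analysis was possible because the removed and monotransgenic samples share no sample number. Arrays number 3 in a group, and dim probe sets such as *Lum* and *Upk1b* lie near the filter, so their folds depend on the pseudocount: -0.83 to -2.03 and -1.34 to -3.47.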
